A study of Mus musculus with 62 samples.

Results

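The comparison described here is between diaphragm muscles of mice that carried a melanoma which does not induce cachexia and diaphragm muscles of mock-injected control mice. Its members are 30 of the 62 RNA-seq libraries of the series, picked out by their group and week labels. They are 15 non-cachectic and 15 control mice, with 5 mice of each group at 4, 6 and 8 weeks after injection. Per the design text, the animals were female NCI Ath/nude mice aged 2 months that received melanoma cells or a mock injection. The methods describe the tumor cells as patient-derived xenograft cells placed in the flank of immunodeficient animals, with phosphate-buffered saline as the mock injection, whereas the sample labels name the strain C57BL6/J. Cachectic mice, which carried a second melanoma that does induce wasting, were used for reference only, with 17 libraries at the same weeks. Each non-cachectic mouse carried cells of a single tumor stock, so the tumor group stands for that tumor.

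Cachexia is a wasting syndrome in which a tumor or another chronic disease leads to loss of skeletal muscle and fat. Wasting muscle typically raises ubiquitin ligases, proteasome and autophagy genes through FoxO factors, while glucocorticoids and IL-6 family cytokines drive acute phase and stress genes. The diaphragm is the main muscle of breathing, and a tumor that does not cause wasting serves to separate the response to a growing tumor from the response to cachexia.

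Neither library measure taken here differed detectably between groups. Genes encoded in the mitochondrial genome held 45.8% ± 1.42 of TPM (SD, n = 15) in non-cachectic mice and 45.9% ± 2.14 in control mice, a difference of -0.150 percentage points (p = 0.823, two-sided permutation test within weeks). The number of genes above 0 TPM was 18324 ± 195 and 18388 ± 182 (p = 0.358, same permutation test). TPM keep no read depth, so the depth of each library is unknown. In bulk muscle, fewer cells of a type and less RNA per cell cannot be told apart.

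No gene passed the test in the pooled comparison. Of 13578 genes tested with limma on log2(TPM + 1), with week as a block, 0 had a Benjamini-Hochberg adjusted p under 0.05, which is 0% of the genes, and the smallest adjusted p was 1.00. At an unadjusted p under 0.05, 88 genes (0.648%) were higher and 136 genes (1.00%) were lower in non-cachectic mice, together 1.65% of the genes. An exact rank test stratified by week called 0 genes as well, with 216 at an unadjusted p under 0.05. The median difference over all genes was -0.00 on the log2 scale. Among the 13578 genes, 9 had a difference above 1 and 9 a difference below -1 on that scale. The 9 above 1 were Rps26-ps1, Cwc22, Gm6563 and 6 predicted genes that move with Cwc22. The 9 below -1 were the immunoglobulin genes Igkc, Jchain, Igkv1-135, Igkv14-111 and Igkv14-126, the chemokine Cxcl13, and Alb, Mup9 and Fabp1, which are abundant in liver. These 18 were singled out after their values were seen, and their unadjusted p ran from 0.0103 to 0.255.

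The intervals show, gene by gene, which pooled differences remain compatible with the values of the 30 mice. They are not adjusted for the number of genes tested, so they are not the limit of what the adjusted test could call. The 95% confidence interval of the difference lay within a 1.5-fold change in either direction for 13109 genes (96.5%) and within a 2-fold change for 13423 genes (98.9%). The pseudocount of 1 narrows the intervals of weakly expressed genes. Of the 5814 genes with a mean of at least 10 TPM, 5704 (98.1%) had an interval within a 1.5-fold change, and 39 had an interval reaching beyond a 2-fold change. The median half-width of the interval was 0.11 on the log2 scale over all genes and 0.09 over these better expressed genes.

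Under the same procedure, cachectic mice differed from control mice in 2634 genes (19.4%), of which 1564 (11.5% of all genes) were higher and 1070 (7.88%) lower. They differed from non-cachectic mice in 2621 genes (19.3%), 1591 (11.7%) higher and 1030 (7.59%) lower. The count against control depended on the scaling and weighting: it was 2008 higher and 1988 lower with median-ratio scaling, 2063 and 2352 with quantile normalization, and 5493 and 1610 with array quality weights. Against non-cachectic mice the same settings gave 1883 higher and 1962 lower, 1881 and 2325, and 5822 and 1596. These comparisons share mice with each other, so their counts are not independent.

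**Figure D1:**
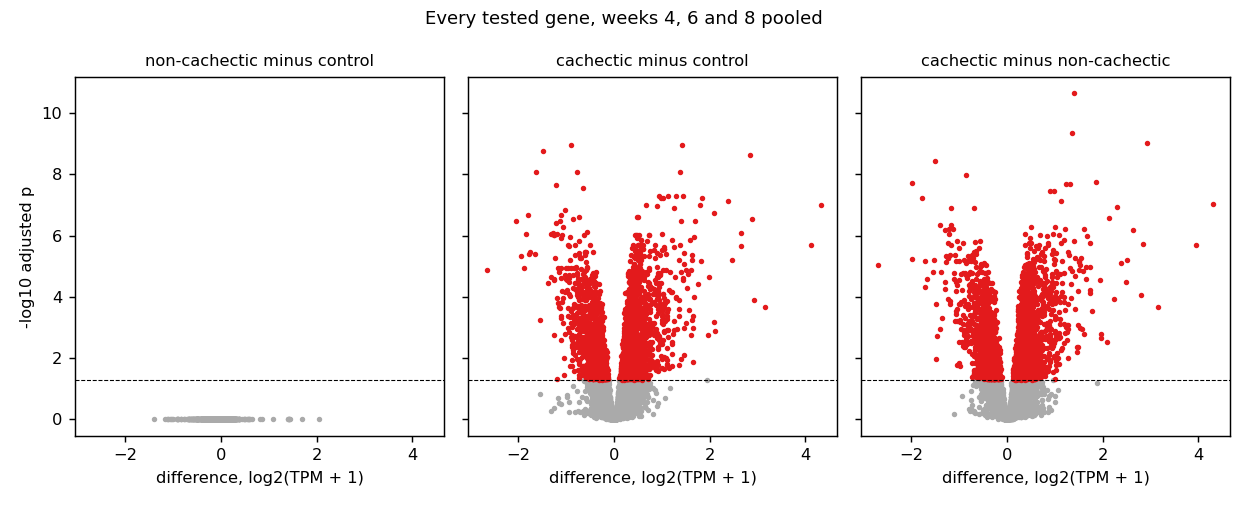
Each point is a gene; the x axis gives the difference between groups on log2(TPM + 1) and the y axis the -log10 adjusted p from limma, with red points past the dashed threshold of 0.05. The left panel, non-cachectic minus control, holds 0 red points of 13578, while the panels with cachectic mice hold 2634 and 2621.

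The single weeks gave the same count of calls. At 4 weeks, 0 genes (0%) passed and 3.36% had an unadjusted p under 0.05, with 107 genes higher and 349 lower. At 6 weeks, 0 genes passed and 4.38% had an unadjusted p under 0.05, with 446 higher and 149 lower. At 8 weeks, 0 genes passed and 3.19% had an unadjusted p under 0.05, with 97 higher and 336 lower. The balance of unadjusted differences thus leaned lower at 4 and 8 weeks and higher at 6 weeks. A test of whether the non-cachectic difference changed among the 3 weeks called 0 genes with limma, with 4.28% at an unadjusted p under 0.05 and a smallest adjusted p of 0.948.

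The tissue carried the markers of skeletal muscle at high level in both groups. The summed level of 12 muscle markers ranged from 68857 to 86160 TPM in non-cachectic mice, with a median of 80466 TPM, and from 73957 to 90865 TPM in control mice, with a median of 79396 TPM. Acta1, the actin of the skeletal muscle thin filament, had 27045 ± 2358 TPM (SD, n = 15) in non-cachectic and 27129 ± 3035 TPM in control mice, a difference of -0.00 on the log2 scale with a 95% interval from -0.10 to 0.09. Ckm, the muscle creatine kinase that buffers ATP, had 5371 ± 486 and 5226 ± 596 TPM, with an interval of the log2 difference from -0.07 to 0.15.

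Myosin heavy chains set the speed of a fibre's contraction, and their mixture marks fibre type. Myh1, of fast type 2x fibres, was the most abundant of the 4 fibre type myosins, at 4852 ± 1047 TPM in non-cachectic and 4711 ± 941 TPM in control mice. Myh2, of type 2a fibres, followed at 3519 ± 572 and 3438 ± 488 TPM. Myh7, of slow fibres, had 395 ± 120 and 422 ± 124 TPM, and Myh4, of type 2b fibres, had 207 ± 132 and 196 ± 147 TPM. The log2 differences lay between -0.10 and 0.21 and the ranges of the groups overlapped for all 4. The interval for Myh4 ran from -0.56 to 0.98, so a 1.5-fold higher level was within its reach, while that for Myh2 ran from -0.12 to 0.17.

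Myh8, the perinatal myosin, was near 0 in a few mice. It lay between 14.96 and 53.9 TPM in all 15 control mice and in 12 of the 15 non-cachectic mice. In the other 3 non-cachectic mice it was 0.491 TPM (6 weeks, replicate 2), 1.03 TPM (8 weeks, replicate 2) and 0.530 TPM (8 weeks, replicate 3). Such levels were not particular to non-cachectic mice, as 2 of the 17 cachectic mice had 0.366 and 0.442 TPM. Myh3, the embryonic myosin, was at 0.194, 0.629 and 0.221 TPM in the same 3 non-cachectic mice. It was also at 0.505 TPM in non-cachectic 8 weeks replicate 4, where Myh8 was at 26.8 TPM. In control 6 weeks replicate 2, Myh3 was at 0.0908 TPM and Myh8 at 14.96 TPM, the lowest Myh8 of the control mice. The pooled log2 difference of Myh8 was -0.91 (95% interval -1.83 to 0.02, unadjusted p = 0.0536), and it did not pass the test.

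Sarcomere genes as a group gave no call: of 37 tested, 0 passed in either direction and their median difference was 0.01, beside -0.00 for all genes. Mylpf, the regulatory light chain of fast fibres, had the smallest p among them, at 5773 ± 606 TPM against 5359 ± 422 TPM, a log2 difference of 0.10 ± 0.05 (SE, limma unadjusted p = 0.0385). In the list of denervation and neuromuscular junction genes, 0 of 18 passed, and 2 were lower at an unadjusted p under 0.05, as were 1.00% of all genes. They were Chrnd, a subunit of the muscle acetylcholine receptor, with a log2 difference of -0.26 (limma unadjusted p = 0.00908), and Ache, the acetylcholinesterase of the synapse, with -0.15 (limma unadjusted p = 0.0422). Chrnd ranged from 2.18 to 6.66 TPM in non-cachectic mice and from 3.61 to 7.00 TPM in control mice, with 3 non-cachectic mice below every control.

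Genes of protein breakdown differed little from control, with intervals within a 1.5-fold change. Fbxo32 (atrogin-1), a muscle ubiquitin ligase that rises in many forms of atrophy, ranged from 74.8 to 177 TPM in non-cachectic mice, with a median of 122 TPM, and from 87.0 to 159 TPM in control mice, with a median of 119 TPM. Its log2 difference was -0.04, with a 95% interval from -0.23 to 0.16. Trim63 (MuRF1), the other classical atrophy ligase, had medians of 112 and 95.1 TPM and a log2 difference of -0.04, with an interval from -0.32 to 0.24. The ranges of both genes overlapped between groups.

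Of the 14 tested atrophy ligases and related genes, 0 were called and the median difference was -0.01. All 14 intervals lay within a 1.5-fold change, as did 96.5% of those of all genes. In cachectic against control mice the same list had a median of 0.08 with 2 of 14 genes called higher, close to the 11.5% of all genes called higher there. For the 31 proteasome genes the median was -0.02 with 0 called and all 31 intervals within a 1.5-fold change, where the cachectic comparison had a median of 0.20 and 20 of 31 genes called higher, beside 11.5% of all genes. For the 18 FoxO and autophagy genes the median was -0.02 with 0 called and all 18 intervals within that limit, beside 0.30 with 5 of 18 called higher and 1 lower in cachectic mice. The cachectic values use the same control mice.

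**Figure D2:**
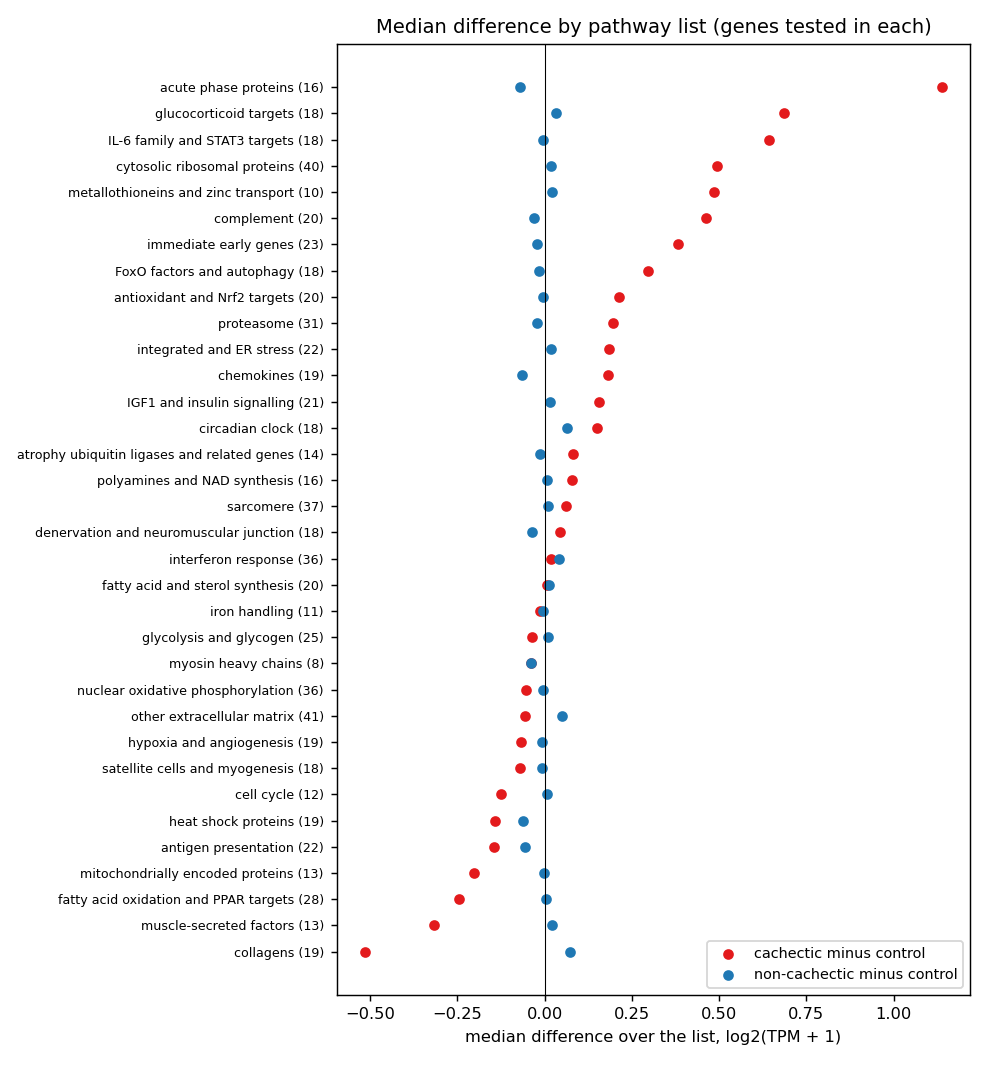
Each row is a pathway list with the number of genes tested; the x axis is the median difference from control on log2(TPM + 1), in blue for non-cachectic and red for cachectic mice, which share the control mice. The blue points stay near 0, between -0.07 for acute phase proteins and 0.07 for collagens, while the red points run from -0.51 to 1.14.

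Lists of energy metabolism gave similar values. The 13 mitochondrially encoded protein genes had a median difference of -0.00, the 36 nuclear oxidative phosphorylation genes -0.00, the 25 glycolysis and glycogen genes 0.01, and the 28 fatty acid oxidation genes 0.00, each with 0 genes called. Ndufb8, a subunit of respiratory complex I, was lower at an unadjusted p under 0.05, with 248 ± 25.6 TPM against 273 ± 21.3 TPM and a log2 difference of -0.14 (limma unadjusted p = 0.00796). All 36 intervals of the nuclear list lay within a 1.5-fold change. In the cachectic comparison, 10 of the 28 fatty acid oxidation genes and 8 of the 13 mitochondrially encoded genes were called lower, beside 7.88% of all genes, and 1 of the fatty acid oxidation genes was called higher.

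Acute phase, glucocorticoid and IL-6 lists, which had high medians in cachectic mice, had medians near 0 in non-cachectic mice, with a smaller share of narrow intervals than the 96.5% over all genes. Acute phase proteins, which the liver and other tissues raise under IL-6 signalling, had a median of -0.07 over 16 genes with 0 called, beside 1.14 and 8 of 16 called higher in cachectic mice, where 11.5% of all genes were. Their non-cachectic intervals lay within a 1.5-fold change for 9 and within a 2-fold change for 12 of the 16. The lowest difference was that of Fgg, the fibrinogen gamma chain, at -0.59, and the interval bounds of the list reached from -1.51 to 0.96. Glucocorticoid targets had 0.03 over 18 genes with 0 called, beside 0.69 and 9 called higher, and 14 intervals lay within a 1.5-fold change. IL-6 family and STAT3 targets had -0.00 over 18 genes with 0 called, beside 0.64 and 8 called higher, and 16 intervals lay within that limit.

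Cytosolic ribosomal protein genes had a median of 0.02, with 0 of 40 called and all 40 intervals within a 1.5-fold change. In cachectic mice all 40 were called higher with a median of 0.49, beside 11.5% of all genes called higher there. Collagens, the main fibres of the matrix around muscle cells, had a median of 0.07 with 0 of 19 called, and in cachectic mice -0.51 with 12 called lower, again beside 7.88% of all genes. Col3a1, a fibrillar collagen, had the largest difference of these, 121 TPM against 101 TPM and 0.25 on the log2 scale, with an interval from -0.14 to 0.65.

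Across the 172 genes that differed by over 2-fold between cachectic and control mice and passed the test there, the non-cachectic interval lay within a 1.5-fold change for 151 (87.8%) and within a 2-fold change for 167 (97.1%), lower shares than the 96.5% and 98.9% of all genes. The genes higher in cachectic mice had a median log2 difference of 1.26 there and 0.02 in non-cachectic mice. The genes lower in cachectic mice had medians of -1.18 and -0.02. The 172 genes were chosen with the control mice that both comparisons share.

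A score for each mouse was taken as the mean difference from the control mean over these 172 genes, with the sign turned for the genes that were lower in cachectic mice. It ranged from -0.22 to 0.33 in control mice, with a median of 0.01, and from -0.21 to 0.58 in non-cachectic mice, with a median of -0.03. In cachectic mice it ranged from 0.21 to 2.20, with a median of 1.56. The genes were chosen on these same cachectic and control mice, so the higher scores of cachectic mice follow from the choice. The non-cachectic value of 0.58 belonged to 8 weeks replicate 3, and the other 14 non-cachectic mice reached at most 0.17, below the highest control. That mouse lay within the range of the cachectic group, above cachectic mice at 4 weeks with 0.21, 0.36 and 0.51 and level with the 0.58 of cachectic 8 weeks replicate 3.

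**Figure D3:**
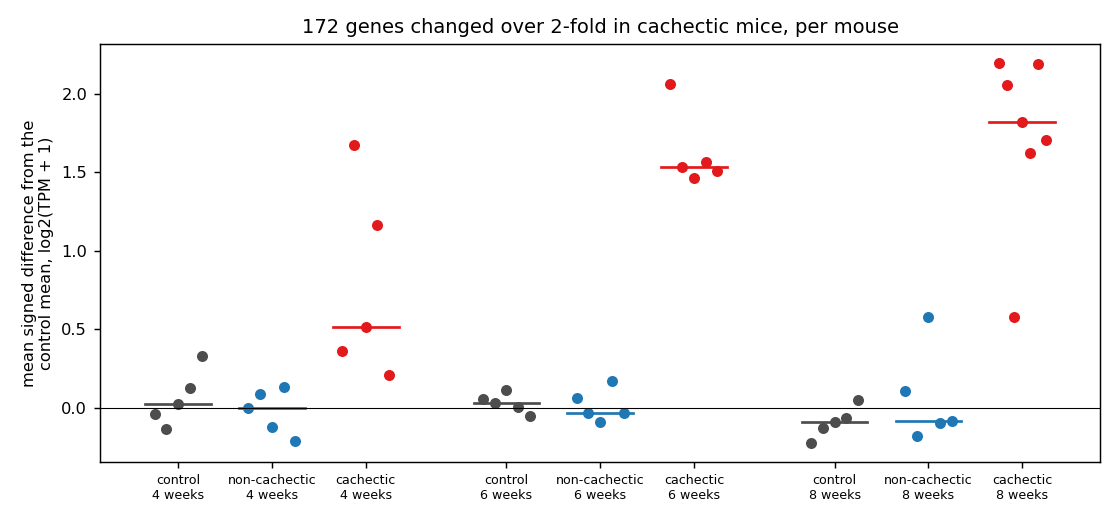
Each point is a mouse and each bar a group median; the y axis is the mean signed difference from the control mean over 172 genes on log2(TPM + 1). Non-cachectic mice overlap the controls except for replicate 3 at 8 weeks, at 0.58, while cachectic mice reach 2.20.

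The genes with the largest change in cachectic mice at 8 weeks show this mouse in detail. They had been chosen on these samples, and 0 of the 10 were called in the pooled comparison. All 10 also meet the rule for the 172 genes of the score. Their values in this mouse are therefore no check that is separate from the score. Serpina3n, a protease inhibitor of the acute phase, ranged from 4.32 to 21.7 TPM in non-cachectic mice, with a median of 6.91 TPM, and from 4.08 to 11.6 TPM in control mice, with a median of 7.52 TPM. The highest value was that of 8 weeks replicate 3, and the next non-cachectic mouse stood at 11.5 TPM, below the highest control.

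Hp, which encodes the haemoglobin-binding acute phase protein haptoglobin, was at 92.5 TPM in this mouse against a non-cachectic median of 10.9 TPM and a control range of 3.74 to 54.9 TPM. Mt2, a metal-binding metallothionein, was at 43.2 TPM against a median of 14.2 TPM and a control range of 6.96 to 27.7 TPM. Saa1, an acute phase apolipoprotein, reached 0.935 TPM, where control mice lay between 0 and 0.489 TPM. Ccl8, a chemokine that attracts monocytes, was at 4.54 TPM, just under the highest control at 4.75 TPM. Of these 5 genes, which rise in cachectic mice, this mouse was thus above every control for Serpina3n, Hp, Mt2 and Saa1, at low absolute level for Saa1, and not for Ccl8. Other non-cachectic mice also exceeded every control: 6 weeks replicate 2 for Saa1, at 0.674 TPM, and 6 weeks replicate 4 for Ccl8, at 8.96 TPM.

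The genes that fall in cachectic mice were low in the same mouse. Mfap4, a matrix glycoprotein, was at 10.6 TPM against a control range of 18.8 to 61.5 TPM. Ky, a muscle protein of the Z-disc, was at 13.6 TPM against 39.7 to 60.6 TPM, and Nrep was at 39.6 TPM against 64.4 to 114 TPM. Nmrk2, a muscle kinase of NAD synthesis, was at 47.1 TPM against 66.7 to 177 TPM, and Aplnr, the apelin receptor, was at 1.73 TPM against 2.74 to 18.0 TPM. For each of these 5 genes this mouse lay below every control. It was not alone for Ky, which was at 24.4 TPM in non-cachectic 4 weeks replicate 1 and 29.0 TPM in 8 weeks replicate 1. Nrep was also below every control in non-cachectic 6 weeks replicate 4, at 58.9 TPM.

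**Figure D4:**
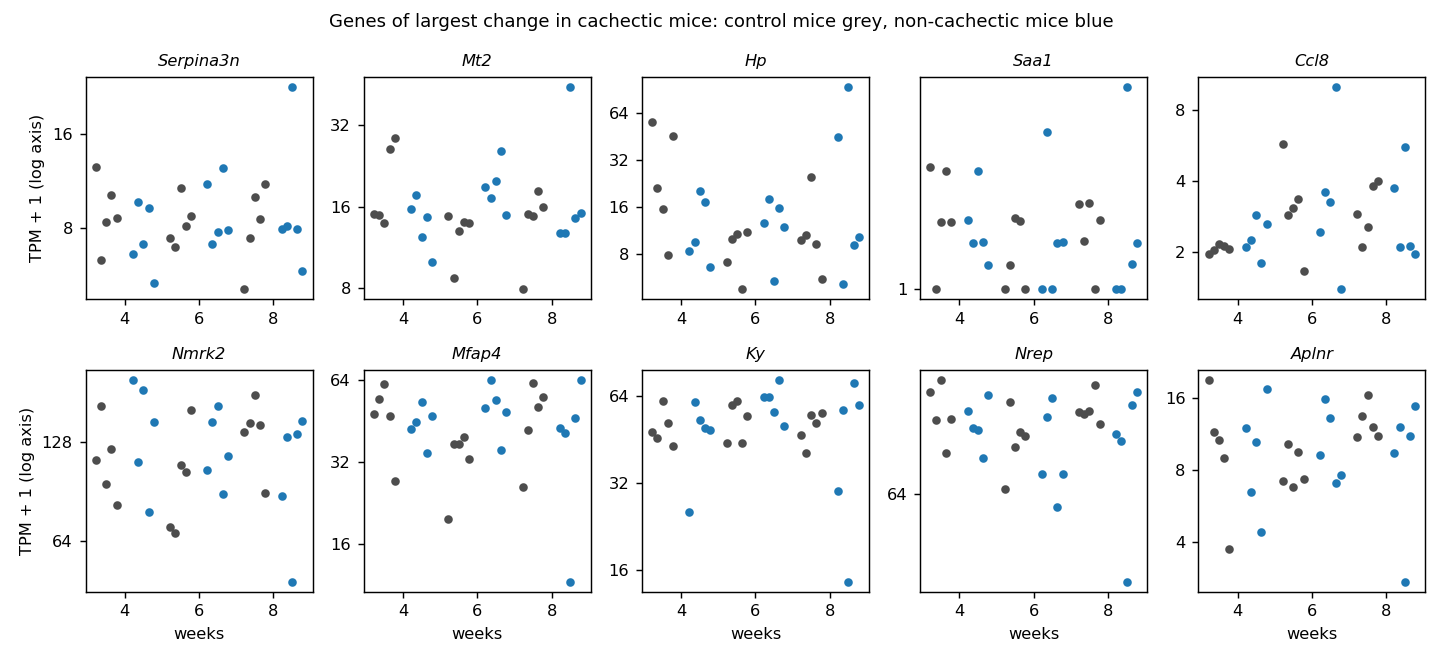
Each point is a mouse, with control mice in grey and non-cachectic mice in blue at 4, 6 and 8 weeks; the y axis is TPM + 1 on a log axis. The groups overlap for all 10 genes, and the blue point at 8 weeks that stands apart in most panels is replicate 3, as in Serpina3n at 21.7 TPM.

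Without that mouse, 0 genes were called in either direction in the pooled comparison, and 313 rather than 224 had an unadjusted p under 0.05. Such a rise was not particular to it, as leaving out control 8 weeks replicate 1 instead also gave 313. Without the non-cachectic mouse, the log2 difference of Serpina3n went from 0.01 to -0.10, that of Hp from 0.09 to -0.12 and that of Aplnr from -0.10 to 0.05, none of which passed the test in either form. At 8 weeks alone, 0 genes were called without the non-cachectic mouse, and the smallest adjusted p was 0.129.

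The same mouse carried the highest Igkc, the immunoglobulin kappa constant region made by B and plasma cells, at 2226 TPM, against a non-cachectic median of 15.4 TPM and a control range of 5.54 to 628 TPM. It had 364 genes more than 1 log2 unit away from the mean of the other 29 mice. Control 4 weeks replicate 1 had 474 such genes, control 4 weeks replicate 5 had 270 and non-cachectic 6 weeks replicate 4 had 246, and the others had 54 to 188. Mice of both groups thus stood apart.

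Ccl8 ranged from 0.397 to 8.96 TPM in non-cachectic and from 0.663 to 4.75 TPM in control mice, and its log2 difference was 0.06 with an interval from -0.35 to 0.47. Fibcd1, the muscle-secreted factor at the centre of the study, did not reach the level needed to be tested, with at most 0.0118 TPM in non-cachectic and 0.0308 TPM in control mice.

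Markers of other cell types did not pass the test in any list. Macrophage markers had a median difference of -0.07 over 12 genes, beside 0.41 with 6 of 12 called higher in cachectic mice (11.5% of all genes), and their summed level ranged from 220 to 1350 TPM in non-cachectic and from 312 to 1853 TPM in control mice. Neutrophil markers had -0.05 over 6 tested genes, and endothelial markers had -0.03 with all 12 intervals within a 1.5-fold change. Fibroblast markers had 0.06, again with all 12 intervals within that limit. T cell markers were near 0 in both groups: Cd3e reached at most 0.180 TPM in non-cachectic and 0.267 TPM in control mice, and Cd8a at most 0.0861 and 0.116 TPM. Foxn1-deficient nude mice lack a thymus and so most T cells. The pigment cell genes Pmel, Mlana and Tyr did not exceed 0.323 TPM in any of the 30 mice. The whole list of 8 melanocyte genes summed to 6.47 to 12.8 TPM in non-cachectic and 7.57 to 11.6 TPM in control mice. These are mouse genes and the tumor cells were patient-derived, so the values say little about tumor cells.

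The cell type lists with the widest intervals were those of liver and of B and plasma cells. Intervals were also wide for erythroid cells, with 2 of 6 within a 1.5-fold change and a lowest bound of -1.43, and for adipocytes, with 6 of 12 and a highest bound of 1.07. The 12 liver genes had a median log2 difference of -0.61, beside -0.26 in cachectic against control mice. In the non-cachectic comparison 0 were called and 0 intervals lay within a 1.5-fold change. Alb, the serum albumin made by hepatocytes, ranged from 0.126 to 129 TPM in non-cachectic mice, with a median of 14.3 TPM, and from 0 to 911 TPM in control mice, with a median of 42.8 TPM. The summed liver markers ran from 13.9 to 585 TPM and from 15.1 to 1929 TPM. The spread between mice of the same group was thus larger than the difference between groups, and the part of liver tissue in these libraries was not tested.

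The 12 genes of B and plasma cells had a median of -0.27 in non-cachectic mice and -0.42 in cachectic mice, both against the control mice. In the non-cachectic comparison all 12 differences were below 0, and 0 intervals lay within a 1.5-fold change. Igkc had a log2 difference of -1.39 (95% interval -3.11 to 0.33, limma unadjusted p = 0.110), although its mean was higher in non-cachectic mice, at 229 TPM against 175 TPM. The mean rests on the mouse at 2226 TPM, while the medians were 15.4 and 91.3 TPM. Cxcl13, the chemokine that attracts B cells, had a pooled log2 difference of -1.12 (limma unadjusted p = 0.0533), medians of 2.19 and 11.1 TPM, and 6 non-cachectic mice below every control, and it did not pass the test. Its direction was not the same at all weeks: the log2 difference was -2.51 at 4 weeks and -1.46 at 6 weeks but 0.59 at 8 weeks, where the non-cachectic median was 14.7 TPM against 7.62 TPM in control mice.

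The genes with the smallest p were not called. Lyrm7, an assembly factor of respiratory complex III, had the smallest, with a log2 difference of 0.38 ± 0.09 (SE, limma unadjusted p = 0.000425). It ranged from 6.21 to 13.0 TPM in non-cachectic mice, with a median of 9.47 TPM, and from 5.41 to 10.01 TPM in control mice, with a median of 7.12 TPM. Of the non-cachectic mice 6 lay above every control, and the remaining 9 lay within the control range.

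Other genes among the 15 of smallest p that were higher were Tnip1, an inhibitor of NF-kB signalling, at 0.32, Ackr2, a scavenging receptor for chemokines, at 0.29 and Ppp1r14b at 0.15. Among the 15 that were lower were Uchl1, a neuronal ubiquitin hydrolase, at -0.39, Tbc1d1, a regulator of glucose transporter traffic, at -0.24, and Gfra1, a receptor for glial cell line-derived neurotrophic factor, at -0.18. Each had an unadjusted p between 0.000425 and 0.0106 and an adjusted p of 1.00.

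Several of these genes were neighbours on the chromosomes. Among the 31 genes at an unadjusted p under 0.01 that had a position in the GENCODE annotation of the same build (GRCm38, mm10), 4 pairs had starts within 1 Mb. How many such pairs 31 genes taken at random would hold was not tested. Lyrm7 (chr11:54826866-54860916) and Tnip1 (chr11:54910785-54962917) lay 83919 bases apart, measured between starts, and Ndufb8 and Sec31b on chromosome 19 lay 31615 bases apart. Rsph3b (chr17:6904413-6948682), Rnaset2b (chr17:6970634-7011299) and Rsph3a (chr17:7945614-7979824) made up the other pairs.

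The 3 genes on chromosome 17 split the mice in the same way. Rsph3a, which encodes a radial spoke protein of cilia, was between 3.80 and 7.74 TPM in 9 mice and between 15.2 and 32.6 TPM in the other 21. The low class held 8 control mice and 1 non-cachectic mouse, and the high class 7 control and 14 non-cachectic mice. Rsph3b, its close copy, had 30.1 to 43.1 TPM in the same 9 mice and 54.4 to 94.1 TPM in the others, and Rnaset2b, a ribonuclease, had 31.3 to 37.3 TPM and 40.7 to 58.5 TPM. All 30 mice fell in the same class for the 3 genes. Both classes occurred in both groups, and the pooled log2 differences were 0.87, 0.48 and 0.23. The classes were cut at the widest gap after the values were seen.

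A gap of over 2 log2 units with at least 2 mice on each side was found in 29 genes, a search made after the values were seen. Among them were immunoglobulin segments, H2-Eb1 and H2-Ea-ps of the histocompatibility region, and processed pseudogenes. None of the 29 was called. All 9 genes with a log2 difference above 1 are among them.

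Cwc22 (chr2:77881159-77946375), a splicing factor of the exon junction complex pathway, was between 3.47 and 4.95 TPM in 22 mice and between 62.1 and 187 TPM in the other 8, with no mouse in between. The high class held 7 of 15 non-cachectic mice and 1 of 15 control mice, the control being replicate 1 at 8 weeks with 94.7 TPM. It also held 4 of the 17 cachectic mice. The log2 difference was 1.69 ± 0.62 (SE, limma unadjusted p = 0.0105). The high mice were spread over all 3 weeks among the non-cachectic mice.

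The predicted genes Gm13691, Gm13693, Gm13694, Gm13696, Gm13697 and Gm13698, at chr2:83955693-83993045, split the 30 mice exactly as Cwc22 did. Gm13693 was at most 0.0212 TPM in the low class and 7.02 to 21.0 TPM in the high class. Of all 100-base stretches in the annotated transcripts of Gm13693, 21.2% also occur without mismatch in those of Cwc22, so reads from either locus can be split between them and their levels are uncertain. Rsph3a and Rsph3b share 44.7% of the 100-base stretches of Rsph3a in the same way.

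Rps26, a protein of the small ribosomal subunit on chromosome 10 (chr10:128624534-128626747, minus strand), and its processed pseudogene Rps26-ps1 on chromosome 8 (chr8:107439131-107439579, minus strand) showed 3 levels. In 22 mice Rps26 was between 336 and 436 TPM and the copy at most 0.377 TPM. In 7 mice, 6 of them non-cachectic, Rps26 was between 176 and 224 TPM and the copy between 214 and 293 TPM. In a single control mouse, replicate 3 at 8 weeks, Rps26 was at 0.442 TPM and the copy at 493 TPM. The sum of both was 336 to 436 TPM, 390 to 517 TPM and 493 TPM in these classes, so the level of the pair varied far less than that of either gene.

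The coding sequence of Rps26 has 345 bases, and the copy matches 343 of them without gaps. The stretches around the 2 differing bases are shown because they are what separates reads of the gene from reads of the copy. They are read from the GENCODE transcripts of GRCm38, 5′ to 3′ on the coding strand, with the differing base in capitals, and cover coding bases 1 to 60 and 240 to 299.
Rps26, bases 1 to 60: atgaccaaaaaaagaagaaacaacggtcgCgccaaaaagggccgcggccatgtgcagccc
Rps26-ps1, bases 1 to 60: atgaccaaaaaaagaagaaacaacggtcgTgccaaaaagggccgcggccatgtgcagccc
Rps26, bases 240 to 299: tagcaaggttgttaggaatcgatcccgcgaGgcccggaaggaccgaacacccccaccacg
Rps26-ps1, bases 240 to 299: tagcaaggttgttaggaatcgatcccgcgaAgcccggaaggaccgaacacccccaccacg

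The pooled log2 difference of Rps26-ps1 was 2.05, the largest of all tested genes, with an unadjusted p of 0.108. It rested on 6 non-cachectic and 2 control mice with the copy above 1 TPM. Gm6563, another processed pseudogene, on chromosome 19, was above 0 TPM in the same 8 mice only, at 17.01 to 34.6 TPM. Whether the mice differed in genotype at any of these loci was not tested.

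**Figure D5:**
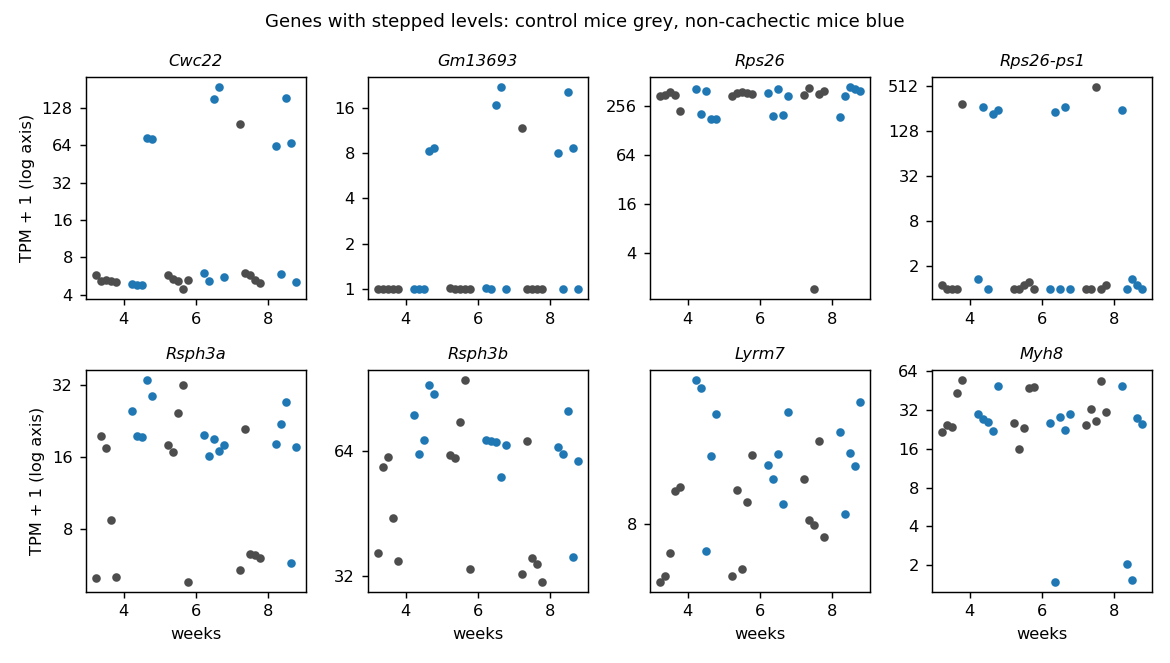
Each point is a mouse, with control mice in grey and non-cachectic mice in blue at 4, 6 and 8 weeks; the y axis is TPM + 1 on a log axis. Cwc22 and Gm13693 are high in the same 8 mice, Rps26-ps1 is high where Rps26 is low, and Lyrm7 varies without a gap of that size.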

How the data were processed

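Diaphragm RNA was extracted with Trizol, sequenced on an Illumina instrument and, per the methods, quality-trimmed and aligned to GRCm38 (mm10) in CLC Genomics Workbench, whose RNA-Seq tool gave the TPM that the authors deposited for 47643 genes. Every library summed to 1000000 TPM before any filter. The library kit is given as stranded in the labels and as another kit in the methods; the annotation release is not given in the sources used here.

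The deposited TPM were put on the log2(TPM + 1) scale, and a gene was tested if 5 or more of all 62 libraries held 1 TPM or more of it. limma 3.58.1 in R 4.3.3 fitted group and week with a mean-dependent prior, with Benjamini-Hochberg adjustment over all 13578 genes. Weeks were compared in a fit of 6 group means, and library measures by 100000 permutations within weeks. Fits were tested on simulated data. Positions came from GENCODE vM21, matched by symbol for 13152 genes.

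The 30 libraries were taken by their labels, but the choice of this comparison and of the gene lists was made with earlier results of these data known. Named genes were the 15 of smallest p in each direction (no gene being called), the member of smallest p in each pathway list, and fixed genes of cachexia and fibre type; the text gives values for part of these, and 1 gene is not reported here. Labels do not say how replicates were raised, so p-values measure the spread between these samples. Alternatives covered the pseudocount, filters, scaling, weights, weeks, tests and each library left out.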

Additional observations from a re-analysis of the deposited data

Results flagged for a closer look

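A value was singled out where, within the 5 mice of a group and week, the highest or lowest log2(TPM + 1) stood apart from the nearest other mouse by more than 0.71 of the whole range (Dixon's ratio). Of 486 such groups over the named genes and library measures, 39 were singled out (8.02%), and chance does so in about 1 in 20 groups. No result was singled out for differing between weeks.

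The mouse with the most was non-cachectic 8 weeks replicate 3, with 7, being high for Gm15934 at 1.18 TPM, Mt2 at 43.2 TPM, Saa1 at 0.935 TPM and Serpina3n at 21.7 TPM and low for Aplnr at 1.73 TPM, Mfap4 at 10.6 TPM and Nrep at 39.6 TPM. All of these except Gm15934 are genes of the score in which this mouse stood out, so the tally is not separate from that score.

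Control 4 weeks replicate 1 was high for Crp at 3.12 TPM and low for Id3 at 24.9 TPM and Mfap1b at 21.9 TPM. Control 4 weeks replicate 5 was high for Mt3 at 5.33 TPM and Tgfbi at 64.8 TPM and low for Irf7 at 1.34 TPM and Mcm6 at 1.22 TPM. Control 6 weeks replicate 1 was high for Gm13693 at 0.0212 TPM and low for Mfap4 at 18.8 TPM. Control 6 weeks replicate 2 was low for Mt2 at 7.74 TPM. Control 6 weeks replicate 3 was high for Crp at 0.642 TPM. Control 6 weeks replicate 4 was low for Ccdc15 at 1.08 TPM and Myh1 at 2385 TPM. Control 8 weeks replicate 1 was high for Cwc22 at 94.7 TPM and Gm13693 at 10.8 TPM and low for Mt2 at 6.96 TPM, Ndrg1 at 11.7 TPM and Pfkm at 1055 TPM. Control 8 weeks replicate 2 was high for Rnaset2b at 46.2 TPM, Rsph3a at 19.98 TPM and Rsph3b at 66.9 TPM. Non-cachectic 4 weeks replicate 1 was high for Gm21967 at 15.5 TPM and low for Ky at 24.4 TPM. Non-cachectic 4 weeks replicate 4 was low for Col5a1 at 9.32 TPM. Non-cachectic 6 weeks replicate 2 was low for Chrnd at 2.18 TPM and Myh8 at 0.491 TPM. Non-cachectic 6 weeks replicate 4 was high for C3 at 688 TPM and low for Rsph3b at 54.4 TPM. Non-cachectic 6 weeks replicate 5 was low for Atf4 at 131 TPM. Non-cachectic 8 weeks replicate 2 was low for Tnip1 at 14.9 TPM. Non-cachectic 8 weeks replicate 4 was low for Rsph3a at 4.76 TPM. Non-cachectic 8 weeks replicate 5 was high for Irf7 at 7.16 TPM.

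The values of Cwc22, Gm13693, Rsph3a, Rsph3b, Rnaset2b and Myh8 fall on genes whose levels form the classes described above. The value of Gm13693 in control 6 weeks replicate 1 is singled out against 4 mice at or near 0 and is itself close to 0.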

How the results depend on the processing

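Under every setting tried, including each library left out, 0 genes were called in the pooled comparison, in the single weeks and among weeks. The number at an unadjusted p under 0.05, 224 as reported, was 448 with array quality weights, 522 with no filter, 723 with the mice at 2 weeks added, 339 without week 4, 435 without week 8 and 46 with all 62 libraries in the fit. Cachectic against control mice gave 3996 calls with median-ratio scaling, 4415 with quantile normalization and 7103 with array quality weights, and cachectic against non-cachectic mice gave 4206 with quantile normalization and 7418 with array quality weights. The number of genes above 0 TPM differed by 11.9 without week 4, against -64.6 as reported. The causes were not tested.

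Signs of single genes that were not called changed as follows, as log2 differences. With a pseudocount of 0.1 it was Saa1 -0.077. With quantile normalization they were Myh1 -0.055 and Myh2 -0.00077. With array quality weights they were Aplnr 0.016, Fbxo32 0.028, Myh1 -0.011, Myh4 -0.082, Saa1 -0.0077, Serpina3n -0.095 and Trim63 0.027. With TPM recomputed without mitochondrially encoded genes it was Saa1 -0.0090. With the mice at 2 weeks added they were C3 -0.18, Col5a1 -0.048, Hp -0.55, Mfap4 -0.14, Mt2 -0.17, Myh1 -0.015, Myh2 -0.024, Myh4 -0.11, Nmrk2 -0.015, Saa1 -0.50 and Serpina3n -0.42. Without week 4 they were Fads2 0.053, Fbxo32 0.051, Nmrk2 -0.044 and Trim63 0.050. Without week 6 they were C3 -0.019, Col5a1 -0.061, Hp -0.12, Mfap4 -0.20, Mt2 -0.061, Myh1 -0.010, Myh4 -0.0023, Myh7 0.072, Nmrk2 -0.064, Saa1 -0.040 and Serpina3n -0.047. Without week 8 they were Aplnr 0.12, Hp -0.26, Ky 0.052, Myh2 -0.026 and Serpina3n -0.076. With the adipocyte list as a covariate they were Hp -0.078, Saa1 -0.014 and Serpina3n -0.019. Leaving out 1 library at a time gave Aplnr -0.20 to 0.048, Ccl8 -0.067 to 0.15, Fbxo32 -0.081 to 0.0037, Hp -0.12 to 0.23, Ky -0.12 to 0.055, Mfap4 -0.0059 to 0.21, Myh1 -0.028 to 0.090, Myh2 -0.0019 to 0.059, Saa1 -0.052 to 0.021, Serpina3n -0.096 to 0.059 and Trim63 -0.097 to 0.012. The cause was not tested.

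Same-numbered mice of both groups did not deviate together as a rule: the correlation of their deviations ran from -0.28 to 0.39 over 15 pairs. The highest values were both at 8 weeks, 0.39 for replicate 3 and 0.26 for replicate 2. The number was not taken as pairing. With the replicate block, 0 genes were called in either direction and 227 had an unadjusted p under 0.05. TPM keep no depth, so no limit from counting can be given.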
